A study of Rattus norvegicus with 46 samples.

Results

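Ucp3, Slc25a25 and Ucp2 encode carriers of the mitochondrial inner membrane. They were taken by symbol from the count table, 3 of its 32552 genes with 1 row each, under the identifiers ENSRNOG00000017716, ENSRNOG00000014338 and ENSRNOG00000017854. They were picked with their quadriceps values across the treatments already known, so the treatment differences in quadriceps are given as descriptions without a test. Values in liver, the contrast between tissues and the variation among libraries of 1 group were not used in the choice.

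Bulk RNA of quadriceps muscle and liver was sequenced from rats labelled WT in a study of energy intake and energy expenditure. CagriSema, which combines the amylin analog cagrilintide with the GLP-1 receptor agonist semaglutide, was given to 1 group. In the Weight matched group, food was restricted until body weight matched. The Vehicle group served as control. Quadriceps had 8 CagriSema, 8 Weight matched and 7 Vehicle libraries, and liver had 7 CagriSema, 8 Weight matched and 8 Vehicle libraries. For the liver, the design text names diet-induced obese (DIO) rats and 20 days of treatment; it does not mention quadriceps, for which neither is assumed here. Nothing in the labels ties each library to its own rat, so p-values measure only spread between libraries, which may be technical.

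Uncoupling proteins belong to the carrier family of the mitochondrial inner membrane. Ucp1, the founding member, lets protons return across that membrane in brown fat so that energy is released as heat. Ucp3 is the member typical of skeletal muscle, where its mRNA is known to be raised by fasting and by fatty acids, while Ucp2 is found in many tissues and in immune cells. Slc25a25 encodes a calcium-binding carrier that exchanges ATP-Mg for phosphate, and mice without it use energy less efficiently and tire sooner.

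Total counts were 11462369 to 16525274 per quadriceps library and 9888858 to 15948219 per liver library. Taking 3 counts as the floor, a count of 0 allows up to 0.182 to 0.262 CPM, the count relative to the library total, in a quadriceps library and 0.188 to 0.303 CPM in a liver library, for counting error only. The tissue labels were borne out by markers. The 7 measured skeletal muscle markers summed to 68471 to 115777 CPM in quadriceps and to at most 55.9 CPM in liver, in Vehicle library 1, where Ucp3 had no count. The 8 hepatocyte markers summed to 37.1 to 114 CPM in quadriceps and to at least 106374 CPM in liver. Some Vehicle libraries stood apart in quadriceps: on the second principal component (16.8% of the variance), libraries 2 and 5 were at -43.8 and -40.5, and mitochondrially encoded genes took 22.9% of the counts of library 8. The fold changes against Vehicle, the list calls and the nearest genes are also given without libraries 2 and 5. Correlations with marker sums and estimates of spread are given only with all libraries.

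The bases in front of Ucp3 and Slc25a25 are shown because the quadriceps levels of these genes were ordered alike over the 3 groups, whereas the Ucp2 levels were not. Each run is the 250 bases before the start site in RefSeq (build GRCr8), 5′ to 3′ on the strand of the gene. Capitals mark AGGTCA, the half-site of nuclear receptors, in Ucp3, and TGACGTCA, the full cAMP response element, in Slc25a25. The Ucp3 run is chr1:164227660-164227909 on the plus strand and the Slc25a25 run is chr3:36116582-36116831 on the minus strand.
Ucp3: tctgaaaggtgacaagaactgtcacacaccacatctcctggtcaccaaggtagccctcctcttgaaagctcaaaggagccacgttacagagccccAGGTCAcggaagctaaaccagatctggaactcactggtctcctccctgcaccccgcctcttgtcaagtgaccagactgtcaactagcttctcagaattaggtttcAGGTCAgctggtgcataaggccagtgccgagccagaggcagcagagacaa
Slc25a25: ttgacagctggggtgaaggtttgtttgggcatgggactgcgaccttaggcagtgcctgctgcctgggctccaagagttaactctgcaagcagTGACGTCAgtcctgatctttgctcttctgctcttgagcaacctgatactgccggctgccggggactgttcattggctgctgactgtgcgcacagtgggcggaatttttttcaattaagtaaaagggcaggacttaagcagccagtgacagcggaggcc

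Motifs were searched on both strands in 300 bases, 250 before to 50 after the start, for all 33469 promoters of the table, and all 3 genes were matched. AGGTCA occurred at 2 places in Ucp3, with first bases 155 and 50 bases before the start, and in 16.2% of all promoters. The AGGTCA nearer the start shares bases with an E-box, CANNTG. TGACGTCA occurred once in Slc25a25, with its first base 158 bases before the start, and in 1.83% of all promoters. The shorter TGACG, found in 21.2% of promoters, was in Slc25a25 only within TGACGTCA. CANNTG was found in 72.1% of promoters, with 2 matches in Ucp3, 1 in Slc25a25 and 1 in Ucp2. The Slc25a25 window held no AGGTCA and the Ucp3 window no TGACGTCA, so Ucp3 and Slc25a25 shared neither marked motif. The Ucp2 window held neither AGGTCA nor TGACGTCA. CACGTG, in 6.42% of promoters, and TATAAA, in 14.2%, were in none of the 3 windows. A match is a description of the letters, not a site in use. Ucp3 and Ucp2 are neighbours on chromosome 1 in that assembly, and Slc25a25 lies on chromosome 3 between Ptges2 and Naif1.

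In quadriceps, Ucp3 stood lowest with CagriSema and highest in Weight matched libraries, with Vehicle between them. All levels are CPM on library sizes scaled by TMM, a correction for differences in composition. Ucp3 ran from 11.9 to 41.1 CPM with CagriSema (median 20.5, from 165 to 569 counts), from 21.4 to 149.9 CPM in Weight matched libraries (median 78.6) and from 20.2 to 66.2 CPM with Vehicle (median 41.7). Of the 8 CagriSema libraries, 4 lay below every Vehicle library, and 5 of the 8 Weight matched libraries lay above every Vehicle library. The Weight matched group was the most uneven: library 26 had 2249 Ucp3 counts, whereas library 27 had 277 and lay among the CagriSema values. Means were 23.4 ± 10.7 CPM with CagriSema (SD, n = 8), 80.3 ± 45.5 CPM in Weight matched (n = 8) and 42.7 ± 13.5 CPM with Vehicle (n = 7). The fitted log2 fold change, here a description, was -0.87 ± 0.36 for CagriSema against Vehicle (± SE), 0.91 ± 0.36 for Weight matched against Vehicle and -1.78 ± 0.35 for CagriSema against Weight matched. The comparisons share libraries, so their signs are not independent of each other.

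Slc25a25 had the same order of groups. It ran from 24.9 to 60.7 CPM with CagriSema (median 41.8), from 89.9 to 188 CPM in Weight matched libraries (median 118) and from 24.0 to 107 CPM with Vehicle (median 49.9). Every CagriSema library lay below every Weight matched library, the only pair of quadriceps groups without overlap among the 3 genes. Across all 12471 genes tested, 0.0561% were lower without overlap in that comparison, and nothing is read from the Slc25a25 count since it was chosen on these values. All CagriSema libraries lay within the range of Vehicle, and 6 of the 8 Weight matched libraries lay above every Vehicle library. Means were 40.8 ± 11.6 CPM with CagriSema (SD, n = 8), 127.6 ± 34.5 CPM in Weight matched (n = 8) and 59.2 ± 28 CPM with Vehicle (n = 7). The log2 fold change was -0.54 ± 0.26 for CagriSema against Vehicle, 1.11 ± 0.26 for Weight matched against Vehicle and -1.64 ± 0.25 for CagriSema against Weight matched (± SE). Summed markers of slow fibres, led by genes such as Myh7, ran from 2084 to 7847 CPM with CagriSema, from 423 to 6007 CPM in Weight matched and from 714 to 12348 CPM with Vehicle, and none of the 7 was called in any comparison. Fast fibre markers summed to 95969 to 126654 CPM with CagriSema, 105655 to 161079 CPM in Weight matched and 71665 to 129835 CPM with Vehicle. Of these markers, 1 of 6 was called, for Weight matched against Vehicle, where 2.29% of all genes tested were called. Over the 23 quadriceps libraries, Slc25a25 had a Spearman correlation of 0.49 with the fast and -0.44 with the slow fibre sum (0.23 and -0.24 with group means removed). For Ucp3 these were 0.23 and -0.25, and -0.06 and 0.05 with group means removed. The part of fibre makeup in these values was not tested.

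Ucp2 did not follow that order. It ran from 4.82 to 11.4 CPM with CagriSema (median 8.44), from 6.4 to 13.9 CPM in Weight matched libraries (median 8.29) and from 5.30 to 31.04 CPM with Vehicle (median 12.3). The 3 ranges overlapped, and the top Vehicle values belonged to library 5, at 31.04 CPM, and library 2, at 16.1 CPM. Means were 8.46 ± 2.39 CPM with CagriSema (SD, n = 8), 8.92 ± 2.71 CPM in Weight matched (n = 8) and 13.1 ± 8.95 CPM with Vehicle (n = 7). The log2 fold change was -0.63 ± 0.31 for CagriSema against Vehicle, -0.55 ± 0.31 for Weight matched against Vehicle and -0.08 ± 0.30 for CagriSema against Weight matched (± SE). Without Vehicle library 5, the differences against Vehicle were -0.25 for CagriSema and -0.18 for Weight matched. Without libraries 2 and 5 they were -0.07 for CagriSema and 0.004 for Weight matched. Without both libraries, Ucp3 stood at -0.98 for CagriSema and 0.80 for Weight matched against Vehicle, and Slc25a25 at -0.65 and 0.998.

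**Figure D1:**
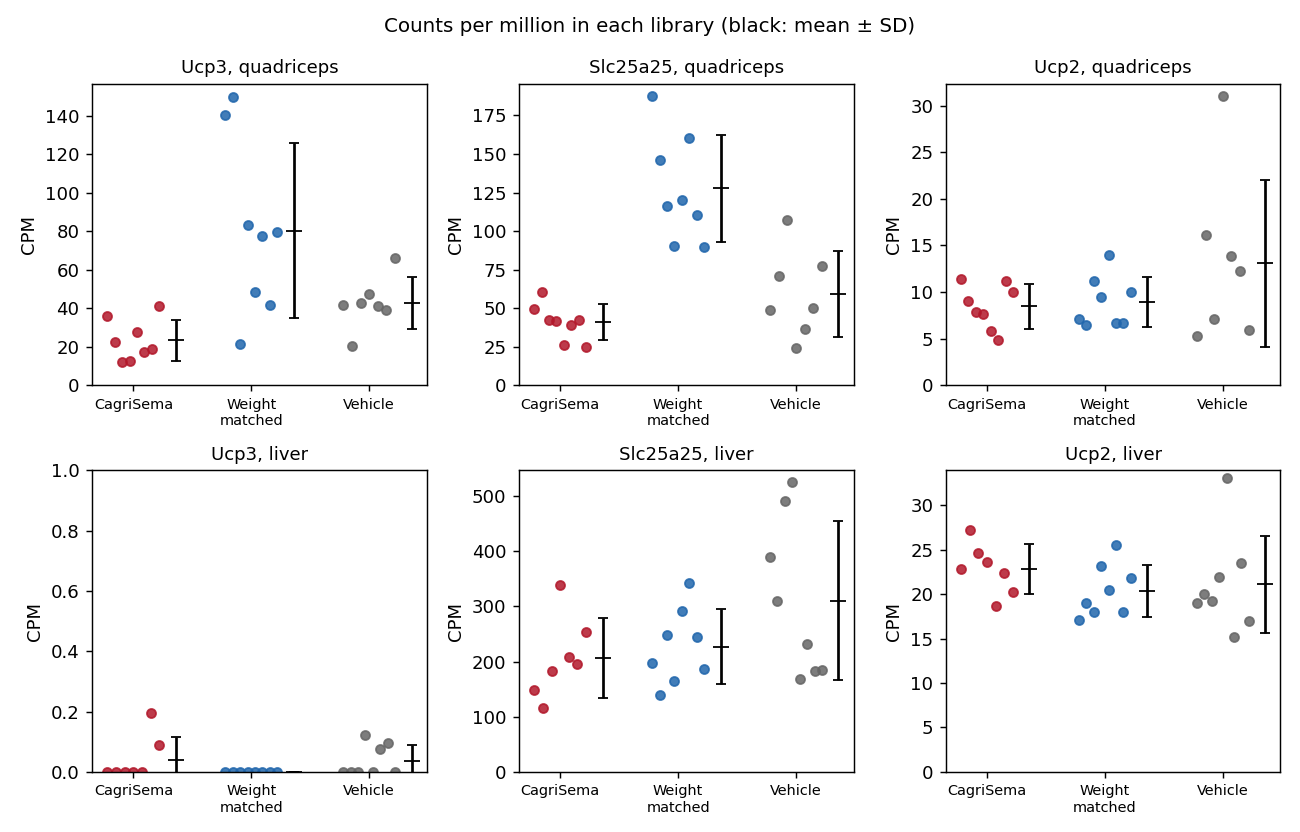
CPM of Ucp3, Slc25a25 and Ucp2 in each library, in quadriceps (upper row) and liver (lower row), by treatment; each point is 1 library and the black bars are mean ± SD of a group. Slc25a25 in quadriceps is at 24.9 to 60.7 CPM with CagriSema and at 89.9 to 188 CPM in Weight matched libraries, while Ucp3 in liver has at most 3 counts in a library.

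**Figure D2:**
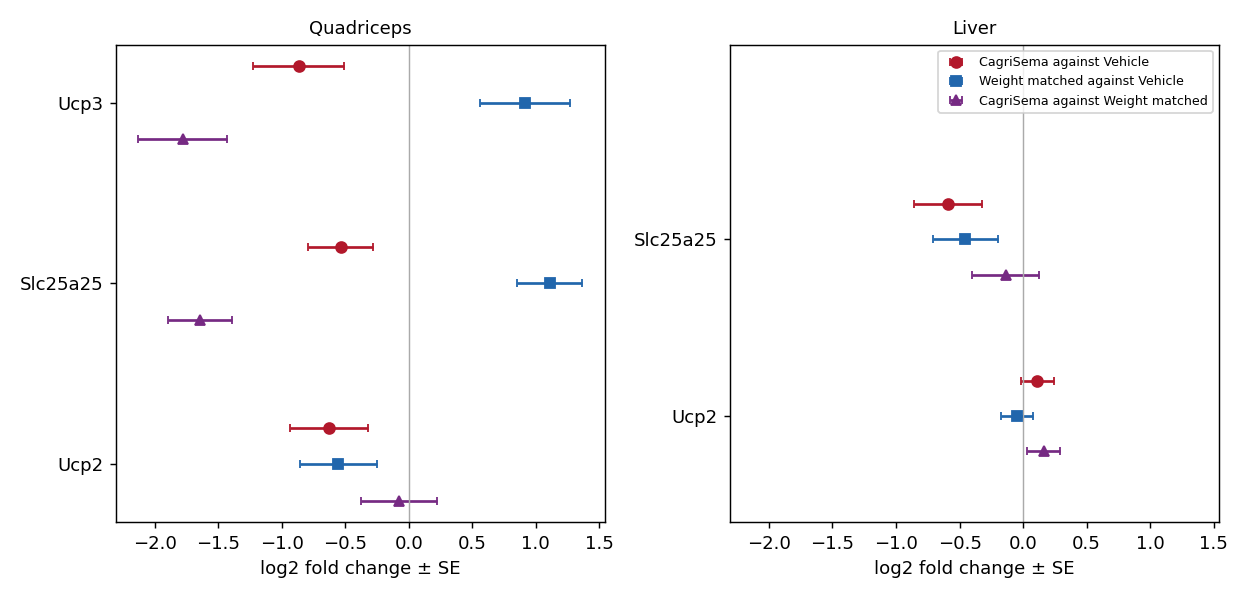
Fitted log2 fold change ± SE of each gene for the 3 treatment comparisons in quadriceps (left) and liver (right); Ucp3 was not fitted in liver. In quadriceps, Ucp3 and Slc25a25 lie below 0 for CagriSema and above 0 for Weight matched against Vehicle, and Ucp2 lies at -0.63 and -0.55.

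The 3 genes varied more than most genes tested in quadriceps, with no allowance for their level. The biological coefficient of variation, the spread between libraries of a group beyond counting error as edgeR estimates it, was 0.47 for Ucp3, 0.40 for Ucp2 and 0.34 for Slc25a25, against a median of 0.14 over all genes tested. These values stand at percentiles 96.3, 94.2 and 90.8 of those genes. In liver, Slc25a25 was again uneven, at percentile 87.9, and Ucp2 was not, at percentile 41.2.

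In liver, Ucp3 was almost absent from the counts. It had 4 counts in the 7 CagriSema libraries together, 0 in the 8 Weight matched libraries and 3 in the 8 Vehicle libraries, with at most 3 in a library. It did not pass the filter on low counts there and was not tested. Ucp2, its neighbour on the chromosome, had 179 to 540 counts in the same livers. Ucp3 counts were also pooled over each group and divided by the pooled total counts, without TMM scaling. By this measure quadriceps stood at 596 times liver with CagriSema (95% exact interval 233 to 2189) and at 1580 times liver with Vehicle (540 to 7666). In Weight matched libraries, with 0 liver counts, the exact interval had a lower limit of 2229. A floor of 3 liver counts over that group would give 2741-fold. These bounds cover counting error only.

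Slc25a25 in liver ran from 115 to 339 CPM with CagriSema (median 196), from 140 to 343 CPM in Weight matched libraries (median 220) and from 169 to 526 CPM with Vehicle (median 271). The groups overlapped, and 4 Vehicle libraries lay above 300 CPM. Means were 206 ± 73.1 CPM with CagriSema (SD, n = 7), 227 ± 68.0 CPM in Weight matched (n = 8) and 311 ± 144 CPM with Vehicle (n = 8). Ucp2 in liver ran from 18.6 to 27.2 CPM with CagriSema (median 22.8), from 17.1 to 25.5 CPM in Weight matched libraries (median 19.7) and from 15.1 to 33.04 CPM with Vehicle (median 19.6). Its groups lay on top of each other, with means of 22.8 ± 2.82 CPM with CagriSema (SD, n = 7), 20.4 ± 2.93 CPM in Weight matched (n = 8) and 21.1 ± 5.49 CPM with Vehicle (n = 8).

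Neither gene passed the quasi-likelihood test of edgeR, with p adjusted by Benjamini-Hochberg, in any of the 3 liver comparisons, in which 0.354% of all genes tested were called for CagriSema against Vehicle, 7.02% for Weight matched against Vehicle and 0.535% for CagriSema against Weight matched. Slc25a25 differed by -0.59 ± 0.26 (log2 fold change ± SE, 95% interval -1.11 to -0.07) for CagriSema against Vehicle, with an unadjusted p of 0.0352 and an adjusted p of 0.252. It was the 1 of 6 such tests with an unadjusted p under 0.05, and DESeq2 called 0 of the 6. For Weight matched against Vehicle Slc25a25 stood at -0.45 ± 0.25 (-0.95 to 0.04, adjusted p = 0.271), and for CagriSema against Weight matched at -0.14 ± 0.26 (-0.65 to 0.38, adjusted p = 0.962). Liver Vehicle library 4, which held the highest Slc25a25 value at 526 CPM, also stood apart, at 134 on a first principal component of 35.9% of the variance. Without it, Slc25a25 was at -0.44 for CagriSema against Vehicle (edgeR adjusted p = 0.446) and at -0.30 for Weight matched against Vehicle (edgeR adjusted p = 0.510). The liver value for Weight matched against Vehicle thus lies below 0, where the quadriceps value is 1.11; the difference between the tissues was not tested, since the quadriceps values entered the choice of the gene. Ucp2 stood at 0.11 ± 0.13 for CagriSema against Vehicle (-0.14 to 0.37, adjusted p = 0.657), at -0.05 ± 0.13 for Weight matched against Vehicle (-0.30 to 0.20, adjusted p = 0.832) and at 0.16 ± 0.13 for CagriSema against Weight matched (-0.09 to 0.42, adjusted p = 0.804).

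Levels in quadriceps and liver were compared within Vehicle, in a fit of all 46 libraries and with CPM scaled over both tissues. Ucp3 averaged 43.5 ± 13.7 CPM in quadriceps (SD, n = 7) and 0.0361 ± 0.0511 CPM in liver (n = 8), and it is given without a test, since it passed the filter on low counts only through quadriceps. Slc25a25 was lower in quadriceps, at 60.3 ± 28.8 CPM against 304 ± 139 CPM in liver, a log2 fold change of -2.33 ± 0.28 (edgeR adjusted p = 2.12e-10), or 5.03-fold higher in liver, and the tissues did not overlap. Ucp2 was lower in quadriceps as well, at 13.3 ± 8.90 CPM against 20.7 ± 5.41 CPM in liver (-0.64 ± 0.23, edgeR adjusted p = 0.0105), with 5 of 7 quadriceps libraries below every liver library. Both Slc25a25 and Ucp2 thus passed, as did 83.4% of the 14110 genes tested, and Slc25a25 did not overlap between tissues, as did not 52.6% of those genes. Both calls held in each of the 15 fits that left out 1 Vehicle library.

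Whether the genes varied together among libraries of 1 group was asked in deviations of log2 CPM from the group mean, over 6 relations with p-values from 100000 permutations within groups. Ucp3 and Slc25a25, whose group levels were ordered alike in quadriceps, showed no relation within groups (Pearson r = 0.01, Spearman rho = -0.01, n = 23, adjusted permutation p = 0.959 and 0.977). Within single groups r was -0.37 with CagriSema, 0.41 in Weight matched and -0.10 with Vehicle, and without the 2 libraries farthest from the median of Ucp3 the pooled r was -0.06. Ucp3 and Ucp2 gave r = -0.18 and rho = -0.21 (adjusted permutation p = 0.615 and 0.667, -0.08 without 2 libraries). Ucp2 and Slc25a25 gave r = -0.45 and rho = -0.24 in quadriceps (adjusted permutation p = 0.283 and 0.667, -0.31 without 2 libraries) and r = -0.18 and rho = -0.17 in liver (0.615 and 0.688, -0.05). By group, r in quadriceps was 0.28 with CagriSema, -0.51 in Weight matched and -0.68 with Vehicle. No relation passed, which does not show that the genes vary independently.

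Same-numbered quadriceps and liver libraries were set side by side for the 22 numbers present in both, although the labels do not say that a number is 1 rat. Ucp2 gave r = 0.47 and rho = 0.26 (adjusted permutation p = 0.283 and 0.667), and r was 0.16 without the 2 numbers farthest from the median. Slc25a25 gave r = 0.21 and rho = 0.08 (0.615 and 0.897), and r was -0.21 without 2 numbers. By group, r for Slc25a25 was -0.68 with CagriSema (n = 7), 0.20 in Weight matched (n = 8) and 0.61 with Vehicle (n = 7). For Ucp2 it was 0.40, 0.07 and 0.61. Neither relation passed, both leaned on those few libraries, and the groups differed in sign for Slc25a25.

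**Figure D3:**
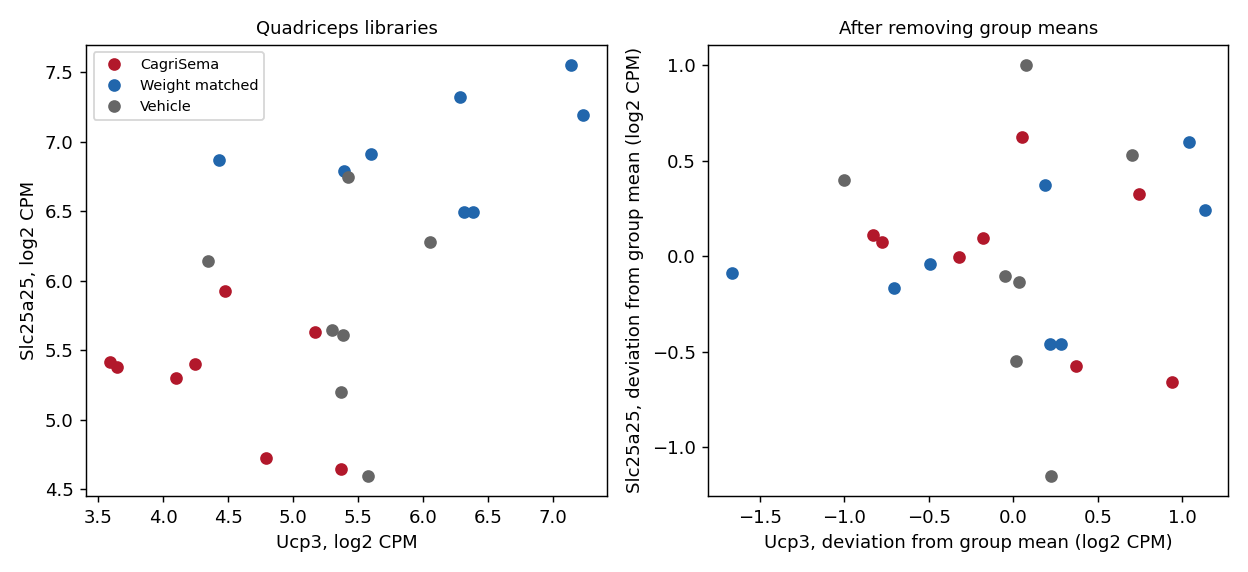
Log2 CPM of Slc25a25 (vertical) against Ucp3 (horizontal) in the 23 quadriceps libraries, coloured by treatment (left), and the same after subtracting each group's mean (right); each point is 1 library. On the left, 6 of the 8 Weight matched points lie above and 5 of the 8 to the right of every Vehicle point. Library 27, at 21.4 CPM of Ucp3, lies among the CagriSema values on the horizontal axis only, with 116.5 CPM of Slc25a25. On the right, r is 0.01.

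For each gene, the genes with the most similar profile over the 23 quadriceps libraries were taken by the Spearman correlation of log2 CPM among 10746 genes, as a description. The libraries share their groups and their depth, so the correlation after removing group means is given with it. Nearest to Ucp3 were Angptl4, an inhibitor of lipoprotein lipase (0.83, and 0.71 with group means removed), Amotl2 (0.75 and 0.18), Pdk4, the kinase that turns off pyruvate dehydrogenase (0.75 and 0.52), the transcription factor gene Klf4 (0.74 and 0.14) and Cpt1a, a gatekeeper of fatty acid entry into mitochondria (0.74 and 0.61). For Amotl2 and Klf4 the likeness lay mostly in the group means, and for Angptl4, Pdk4 and Cpt1a it was also present among libraries of 1 group. Most opposite were Bahd1 (-0.73 and -0.60) and Il10rb (-0.68 and -0.60). Slc25a25 ranked 29th in likeness to Ucp3, at 0.58 and at -0.01 with group means removed. Ucp3 ranked 179th in likeness to Slc25a25.

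Nearest to Slc25a25 were Errfi1, a feedback inhibitor of the EGF receptor (0.84, and 0.64 with group means removed), the cAMP and calcium responsive nuclear receptor gene Nr4a1 (0.81 and 0.65), the splicing kinase gene Prpf4b (0.79 and 0.52), Thap6 (0.79 and 0.71) and Trim63, a muscle ubiquitin ligase of atrophy (0.78 and 0.79). Most opposite were the apelin receptor gene Aplnr (-0.85 and -0.48) and the clock repressor gene Nr1d1 (-0.79 and -0.80). Nr1d1 stood at 80.8 ± 22.7 CPM with CagriSema, 55.0 ± 13.1 CPM in Weight matched and 94.4 ± 15.6 CPM with Vehicle (SD, n = 8, 8 and 7).

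Nearest to Ucp2 were Vim, the intermediate filament gene of connective tissue cells and leukocytes (0.87), Ptprc, the leukocyte antigen CD45 (0.86), Fam46a (0.85), Apbb1ip, an adaptor of leukocyte integrins (0.85), and Sema4a (0.83). With group means removed, these 5 lay between 0.81 and 0.88. Most opposite were Pias4 (-0.88, and -0.90 with group means removed) and Ube3b (-0.81 and -0.77). Without Vehicle libraries 2 and 5 the nearest 5 of Ucp2 were the same, while Amotl2 and Cpt1a left those of Ucp3 and Trim63 those of Slc25a25.

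**Figure D4:**
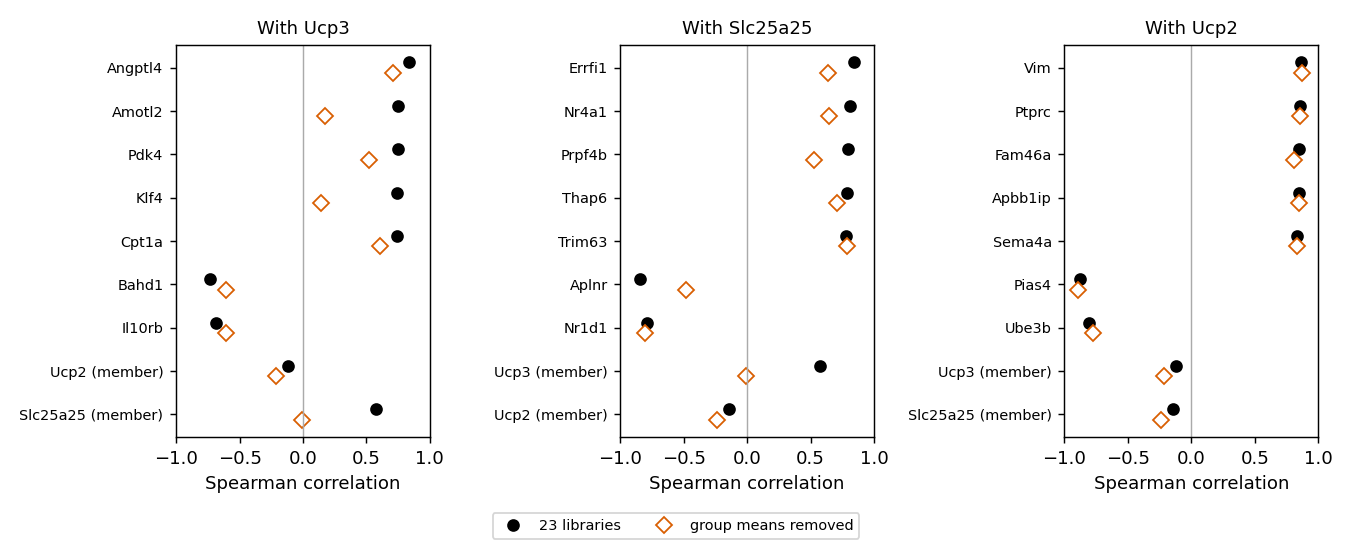
Spearman correlation (horizontal, -1 to 1) of each gene with its 5 most similar and 2 most opposite genes and with the other members, over the 23 quadriceps libraries (black circles) and after removing group means (open diamonds). Slc25a25 lies at 0.58 with Ucp3 over all libraries and at -0.01 after removing group means.

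Markers of several other cell types moved with Ucp2 in quadriceps, those of macrophages with the highest correlation of the 11 lists. The summed CPM of 9 macrophage markers, of which 1, Ptprc, is also among the nearest genes above, had a Spearman correlation of 0.79 with Ucp2 over the 23 libraries and 0.81 with group means removed. It ran from 20.4 to 95.1 CPM with CagriSema, from 36 to 121 CPM in Weight matched and from 26 to 169 CPM with Vehicle, where library 5 was highest at 169 CPM, followed by library 2 at 118 CPM. Marco was at 0 in all 3 groups, and none of the 7 markers tested was called in any comparison. Fibroblast markers had a correlation of 0.47, and of 0.66 with group means removed. Their sum was 389 to 706 CPM with CagriSema, 367 to 753 CPM in Weight matched and 707 to 1642 CPM with Vehicle. Of the 5, 2 were called for Weight matched against Vehicle, where 2.29% of all genes tested were called. Without Vehicle libraries 2 and 5 that comparison called 19 genes in all, against 285 with them, and nothing is read from the 2 calls. Lymphocyte markers summed to at most 2.80 CPM, with a correlation of 0.57. For Ucp3 the correlation was -0.06 with the macrophage sum and 0.03 with the fibroblast sum (-0.19 and 0.05 with group means removed), and for Slc25a25 it was -0.16 and -0.36 (-0.41 and -0.33). Hepatocyte markers, of which 3 of 8 were tested, also moved with Ucp2, at 0.48 and at 0.53 with group means removed, and erythroid markers at 0.34 and 0.35. The hepatocyte sum ran from 40.9 to 76.3 CPM with CagriSema, from 45.7 to 63.2 CPM in Weight matched and from 37.1 to 114 CPM with Vehicle. The erythroid sum ran from 140 to 316 CPM with CagriSema, from 57.6 to 283 CPM in Weight matched and from 93.3 to 772 CPM with Vehicle, and Vehicle library 2 was highest for both sums. In bulk tissue, fewer cells of a type and less RNA per cell cannot be told apart, and the part of other cell types in the Ucp2 values was not tested.

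**Figure D5:**
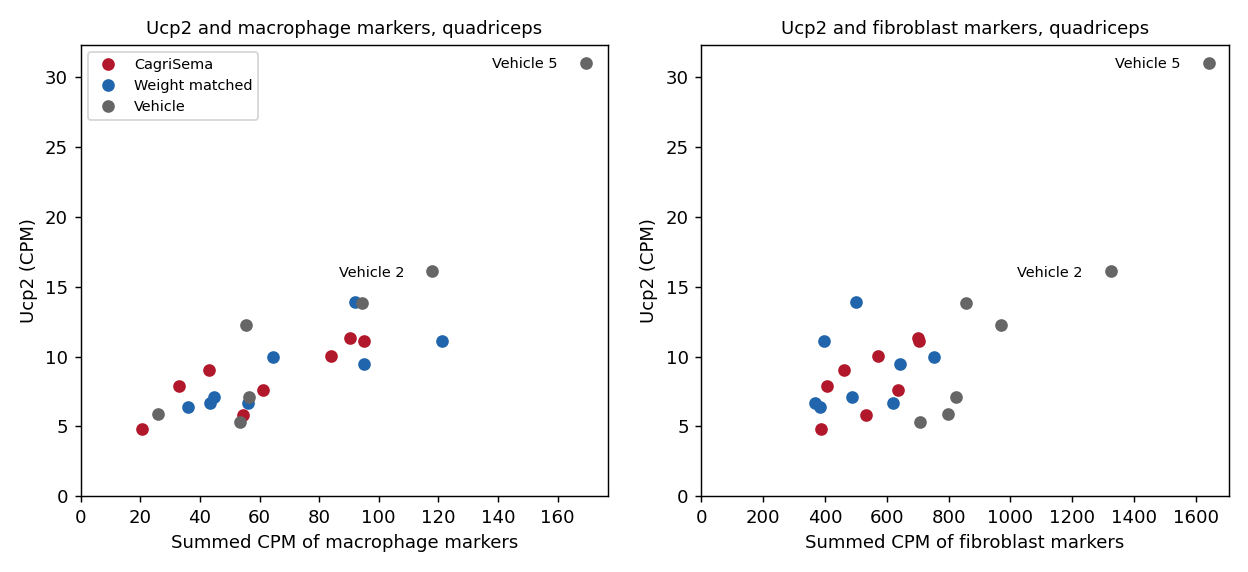
Ucp2 in CPM (vertical) against the summed CPM of macrophage markers (left) and fibroblast markers (right) in the 23 quadriceps libraries, coloured by treatment; each point is 1 library. Vehicle library 5, at 31.04 CPM of Ucp2, and Vehicle library 2, at 16.1 CPM, have the highest fibroblast sums, 1642 and 1324 CPM.

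Ucp1 was at or near 0 in quadriceps. It had 1 count in the 8 CagriSema libraries together, 0 in the 8 Weight matched libraries, which allows up to 0.0253 CPM over the group, and 0 in the 7 Vehicle libraries, which allows up to 0.0310 CPM. Of its other relatives, Slc25a30 averaged 18.1 ± 7.82 CPM with CagriSema (SD, n = 8), 23.7 ± 7.55 CPM in Weight matched (n = 8) and 14.7 ± 4.68 CPM with Vehicle (n = 7). The log2 fold change of Slc25a30 for Weight matched against Vehicle was 0.68 ± 0.26 (edgeR adjusted p = 0.143). Slc25a14 stood between 2.07 and 2.22 CPM and Slc25a27 between 2.42 and 2.55 CPM in the group means.

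The nearest relatives of Slc25a25 did not share its order. Slc25a23, which encodes another ATP-Mg carrier, averaged 70.0 ± 7.38 CPM with CagriSema, 66.7 ± 6.35 CPM in Weight matched and 63.5 ± 8.21 CPM with Vehicle (SD, n = 8, 8 and 7). Slc25a24, a further carrier of the kind, averaged 3.23 ± 0.427 CPM with CagriSema, 3.28 ± 0.827 CPM in Weight matched and 4.55 ± 1.24 CPM with Vehicle. Its log2 fold change was -0.49 ± 0.17 for CagriSema against Vehicle (edgeR adjusted p = 0.315) and -0.47 ± 0.17 for Weight matched against Vehicle (edgeR adjusted p = 0.118). No p passed for either relative in the 3 comparisons.

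Other genes of the pathways around these carriers were counted from 9 lists with 102 tested genes in quadriceps. The lists were chosen with earlier results of these data known. Their counts and p-values are therefore descriptions, and nothing is read from a count above the share over all genes. For CagriSema against Vehicle, edgeR's quasi-likelihood test called 0 of the 102 (15 at an unadjusted p under 0.05, 0 by DESeq2), where 0.0321% of all genes were called (1287 of 12471 unadjusted, 38 by DESeq2). For Weight matched against Vehicle, 6 rose and none fell (34 unadjusted, 17 by DESeq2), where 2.29% of all genes were called and 1.11% were called higher (2392 unadjusted and 693 by DESeq2 in either direction). For CagriSema against Weight matched, 0 were called (21 unadjusted, 15 of them lower, and 3 by DESeq2), where 0.128% of all genes were called (954 unadjusted, 34 by DESeq2). The median log2 fold change over the 102 genes was 0.08 for CagriSema against Vehicle, 0.02 for Weight matched against Vehicle and 0.03 for CagriSema against Weight matched. Over all genes it lay within 0.02 of 0 in each comparison.

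The list of PPAR targets and fatty acid oxidation, in which Ucp3 itself would stand as a PPAR target, had 0 of 23 genes called in each comparison (0, 3 and 2 unadjusted; 0, 1 and 2 by DESeq2), with medians of 0.10 for CagriSema against Vehicle, -0.05 for Weight matched against Vehicle and 0.16 for CagriSema against Weight matched. Pdk4 averaged 205 ± 108 CPM with CagriSema, 546 ± 307 CPM in Weight matched and 306 ± 125 CPM with Vehicle (SD, n = 8, 8 and 7), and CagriSema against Weight matched gave -1.41 ± 0.35 (edgeR adjusted p = 0.213). Angptl4 averaged 1.86 ± 1.85 CPM with CagriSema, 5.69 ± 3.06 CPM in Weight matched and 2.48 ± 0.667 CPM with Vehicle, and the same comparison gave -1.61 ± 0.41 (edgeR adjusted p = 0.213). DESeq2 called both genes there. Pdk4 and Angptl4 had the group order of Ucp3, with differences that did not pass edgeR's test. The median of their list lay above 0 for CagriSema against Weight matched. Both genes were named above for their likeness to Ucp3 over the same libraries, so nothing is read from the shared order.

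Of 12 cAMP and calcium responsive genes, 2 rose in Weight matched against Vehicle (5 unadjusted, 4 by DESeq2), and 0 were called for CagriSema against Vehicle (2 unadjusted, 0 by DESeq2) or against Weight matched (6 unadjusted, all lower, 0 by DESeq2). The list medians were -0.37, 0.20 and -0.40 for CagriSema against Vehicle, Weight matched against Vehicle and CagriSema against Weight matched. Nr4a1 averaged 314 ± 69.0 CPM in Weight matched (SD, n = 8) and 189 ± 62.1 CPM with Vehicle (n = 7), a log2 fold change of 0.73 ± 0.17 (edgeR adjusted p = 0.0315). Pde4d, which encodes a phosphodiesterase that breaks down cAMP, averaged 75.4 ± 10.2 CPM in Weight matched and 54.0 ± 9.01 CPM with Vehicle (0.48 ± 0.10, edgeR adjusted p = 0.0129).

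Of 14 glucocorticoid and FOXO fasting genes, 3 rose in Weight matched against Vehicle (8 unadjusted, 4 by DESeq2). Fkbp5, a co-chaperone of the glucocorticoid receptor and a target of it, averaged 52.3 ± 24.7 CPM in Weight matched and 19.9 ± 4.89 CPM with Vehicle (1.39 ± 0.28, edgeR adjusted p = 0.0171). Pik3r1, a regulatory subunit of PI3 kinase, averaged 43.7 ± 5.29 CPM in Weight matched and 31.8 ± 6.82 CPM with Vehicle (0.46 ± 0.11, edgeR adjusted p = 0.0362). Sesn1, a stress-induced inhibitor of mTORC1 signalling, averaged 56.1 ± 5.60 CPM in Weight matched and 44.6 ± 6.55 CPM with Vehicle (0.33 ± 0.08, edgeR adjusted p = 0.0362). None of this list was called for CagriSema against Vehicle (4 unadjusted, 0 by DESeq2, median -0.06) or against Weight matched (5 unadjusted, 0 by DESeq2, median -0.25), and the median for Weight matched against Vehicle was 0.25.

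Of 15 genes of mitochondrial antioxidant defence, 1 rose in Weight matched against Vehicle (3 unadjusted, 3 by DESeq2): Nqo1, a quinone reductase gene, averaged 15.6 ± 1.85 CPM in Weight matched and 11.4 ± 2.02 CPM with Vehicle (0.45 ± 0.12, edgeR adjusted p = 0.0449). Lists with 0 calls there were the uncoupling protein relatives (3 genes, 1 unadjusted), calcium-binding carriers (4, 1), adenine nucleotide and phosphate carriers (3, 1), regulators of uncoupling genes (17, 6) and futile cycles and heat (11, 6), where DESeq2 called 0, 0, 0, 1 and 4. Among the regulators, Myod1, the myogenic factor gene, averaged 35.3 ± 5.91 CPM with CagriSema, 85.5 ± 30.4 CPM in Weight matched and 49.8 ± 31.6 CPM with Vehicle (SD, n = 8, 8 and 7). CagriSema against Weight matched gave -1.27 ± 0.28 (edgeR adjusted p = 0.0850), and DESeq2 called Myod1 there. This gene was named after its values were seen.

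Of the 6 calls for Weight matched against Vehicle, that of Pde4d held whichever single library was left out, and each of the other 5 was lost without at least 1 library. All 6 genes had a positive log2 fold change in every fit tried. Without Vehicle libraries 2 and 5 none of the 6 passed, with log2 fold changes of 0.24 to 1.33 and edgeR adjusted p-values of 0.0739 for Pde4d to 0.199 for Sesn1. A fit of these 2 groups alone called none of them either (0.0568 for Fkbp5 to 0.109 for Sesn1). In 15 fits that each left out 1 library, Pde4d was called in 15. Fkbp5 was called in 14 and lost without Vehicle library 5 (edgeR adjusted p = 0.0517). Nr4a1 was called in 10 and lost without Vehicle library 2 or 5 or Weight matched library 25, 26 or 30 (edgeR adjusted p = 0.0526 to 0.0825). Sesn1 was called in 8, Pik3r1 in 6 and Nqo1 in 3, each with its highest adjusted p, 0.0967, 0.0961 and 0.111, without Vehicle library 5. With Vehicle libraries 2 and 5 left out, Myod1 was the 1 list gene called for CagriSema against Weight matched (-1.27, edgeR adjusted p = 0.0191). Neither library belongs to the groups compared, and both enter only through the shared fit of the 3 groups. With all libraries the log2 fold change of Myod1 was also -1.27.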

How the data were processed

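Counts per gene of 46 libraries, 23 from quadriceps and 23 from liver, were used as deposited: raw whole numbers, not normalized by the authors. Extraction used an RNeasy Minikit and library preparation a Twist UMI system, per the labels' protocols. Processing used STAR 2.5.2b and fastp 0.23.1, per the submitters' processing notes. Which build, annotation and counter were used, and whether molecular identifiers entered the counting, is not given in the sources used here. Each column was matched by its title, and 1 count column without a library was not used.

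The members and the gene lists were chosen with earlier results of these data known. In R 4.3.3, edgeR 4.0.16 (filterByExpr, TMM, robust quasi-likelihood F tests) fitted the 3 groups of a tissue over 12471 genes in quadriceps and 12702 in liver, with Benjamini-Hochberg adjustment and a threshold of 0.05. Adjusted p-values are edgeR's unless stated otherwise. Correlations and principal components used log2 CPM with a prior count of 2. The procedure was also run on counts simulated from the fitted spread of each gene. That setting holds no outlying libraries, and nothing is read from it here. Alternatives were other size factors, no filter, DESeq2 1.42.0, fits of 2 groups, a replicate block and left-out libraries. List genes named as called are the up to 3 per list and quadriceps comparison with the lowest p past the threshold. Ucp1, Slc25a23 and Slc25a24 were named whether or not they changed. Outside these rules, Slc25a14, Slc25a27 and Slc25a30 complete the list of Ucp1, and Myod1 was named after its values were seen. Similar genes, among them Pdk4 and Angptl4, are the 5 highest and 2 lowest correlations at a mean of at least 1 CPM. Of 179 genes looked up, 9 had no row and were not analysed here. Transcript lengths were not used, so levels are not compared between genes.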

Additional observations from a re-analysis of the deposited data

Results flagged for a closer look

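Over 15 groups of libraries for the 3 genes, 2 held a library far from the rest of its group. This rule, applied to CPM, sets a library apart in about 1 in 20 groups by chance, for normally distributed values. Both were Ucp2 in Vehicle library 5. In quadriceps it stood at 31.0434 CPM, with the next library at 16.1 CPM, a gap of 0.580 of the range. In liver it stood at 33.0357 CPM, with the next at 23.5 CPM, a gap of 0.534 of the range. On log2 CPM, a scale tried after the data were seen, the gaps were smaller, 0.373 of the range in quadriceps and 0.438 in liver, and neither passed Dixon's 95% critical value. The summed macrophage markers were also highest in Vehicle library 5 in each tissue, at 169 CPM in quadriceps and 464 CPM in liver. The labels do not say that the 2 libraries came from 1 rat, and the part of these markers in the Ucp2 values was not tested.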

How the results depend on the processing

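In quadriceps, Ucp3 and Slc25a25 kept their direction in all 3 comparisons under other size factors, no filter, DESeq2, fits of 2 groups and each left-out library. Ucp2 did not: Weight matched against Vehicle came to 0.004 without libraries 2 and 5, and CagriSema against Weight matched to 0.04 without Weight matched library 29. The cause was not tested. In liver no setting led to a call of Ucp2 or Slc25a25 (adjusted p 0.162 to 0.9995), and Ucp2 for Weight matched against Vehicle ran from -0.107 to 0.0740 with 1 library left out, reversed without Vehicle library 5.

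The numbers of all genes called moved more. In quadriceps, no filter gave 131 genes for Weight matched against Vehicle and 7 for CagriSema against Weight matched. DESeq2 gave 38 for CagriSema against Vehicle, 693 for Weight matched against Vehicle and 34 for CagriSema against Weight matched. Fits of 2 groups gave 2 and 7 against Vehicle, and leaving out libraries 2 and 5 gave 0 and 19. In liver, no filter gave 13 for CagriSema against Vehicle and 45 for CagriSema against Weight matched, DESeq2 280 and 209, and fits of 2 groups 4 and 603, with 414 for Weight matched against Vehicle. Without liver Vehicle libraries 4 and 6 the counts were 18 for CagriSema against Vehicle and 590 for CagriSema against Weight matched. With 1 library left out, quadriceps counts ran from 0 to 7, 46 to 645 and 2 to 17, and liver counts from 3 to 130, 532 to 1207 and 27 to 68, for CagriSema against Vehicle, Weight matched against Vehicle and CagriSema against Weight matched.

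Over the 22 library numbers present in both tissues, deviations from group means correlated at -0.00447 to 0.218 (median 0.0737), 6 of them over 0.1. The highest was that of Vehicle number 5. Of these numbers, 17 correlated best with their own partner among the 7 or 8 liver libraries of the same treatment. That is a hint of pairing from the data, which the labels do not state. The main fits did not take the numbers as pairs, and a fit with them as a block is given beside. With the replicate block, quadriceps against liver in Vehicle gave -0.83 for Ucp2 and -2.24 for Slc25a25, both still called, and a fitted 10.01 for Ucp3, which is not tested here. No within-group relation passed under any setting. That of Ucp3 with Slc25a25 reversed to -0.0499 without quadriceps Vehicle library 8, and that of Slc25a25 between tissues to -0.29 without quadriceps libraries 2 and 5 and liver libraries 4 and 6. With 0 to 4 Ucp3 counts in a liver group, no treatment difference of Ucp3 was detectable there at this depth.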
